A study of Mus musculus with 14 samples.

Results

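Levels of 7 genes, Thbd, Plat, Pth1r, Fst, Lyz2, Fxyd3 and Hs3st1, were followed through the conversion of mouse embryonic stem cells (ESCs) to extraembryonic endoderm (XEN) cells with and without Zfp281. The genes were taken by symbol from a deposited table of 23174 gene rows, each symbol named 1 row, and all 14 libraries were used. They were chosen by measured values, their high levels in XEN lines and in Zfp281 knockout cells late in the course, so those contrasts are described here without a test.

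Zfp281 is a zinc finger transcription factor of ESCs, and the series asked how it bears on the passage of ESCs to XEN cells. Polyadenylated RNA was sequenced from 4 ESC lines at 3 stages and from 2 established XEN lines, 1 library each. WT3 is wild type, KO3.34 and KO2.6 are Zfp281 knockouts (KO), and Rescue3.34 is KO3.34 with Zfp281 put back, each on the 129S1/SVImJ background. The XEN lines are labelled wild type, XEN5 on the 129S1/SVImJ and XENB1 on the 129S1 background. ESCs were grown without feeders in serum and leukemia inhibitory factor. The stage cXENp1 (passage 1) was reached in XEN medium after 48 hours of 0.01 µM all-trans retinoic acid with 10 ng/mL activin A. The stage cXENp3 (passage 3) was reached on gelatin after an intervening passage on inactivated fibroblast feeders, and the established XEN lines were grown on gelatin in medium conditioned by fibroblasts. WT3 and Rescue3.34, which carry Zfp281, were joined as Zfp281-present lines and set against the KO lines. Each line is 1 culture with 1 library per stage, and Rescue3.34 derives from KO3.34, so tests measure only the spread between these lines.

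XEN cells represent the extraembryonic endoderm, whose parietal branch lays down a thick basement membrane around the mouse embryo and whose visceral branch covers the yolk sac. Thrombomodulin and tissue plasminogen activator are long-known products of parietal endoderm, and parathyroid hormone-related protein acts through the receptor Pth1r to promote its formation. By their known biology, Thbd, Pth1r and Fxyd3 encode membrane proteins, Plat, Fst and Lyz2 encode secreted or lysosomal proteins, and Hs3st1 encodes a Golgi enzyme, so a minority of the 7 are surface proteins.

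Values are FPKM (fragments counted per transcript length and per sequenced library), so genes can be compared per length, and differences are on the log2(FPKM + 1) scale, which understates the change of low values. A gene was called in limma at a Benjamini-Hochberg adjusted p under 0.05 over all genes tested. No read counts were available, so depth is unknown, and between 14972 and 16831 genes were above 0 per library. Zfp281 ranged from 25.1 to 38.6 FPKM in WT3 and Rescue3.34 over the stages, from 0 to 3.96 FPKM in the KO libraries, and was 10.6 and 12.5 FPKM in XENB1 and XEN5. In bulk RNA, fewer cells of a type and less RNA per cell cannot be told apart.

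**Figure D1:**
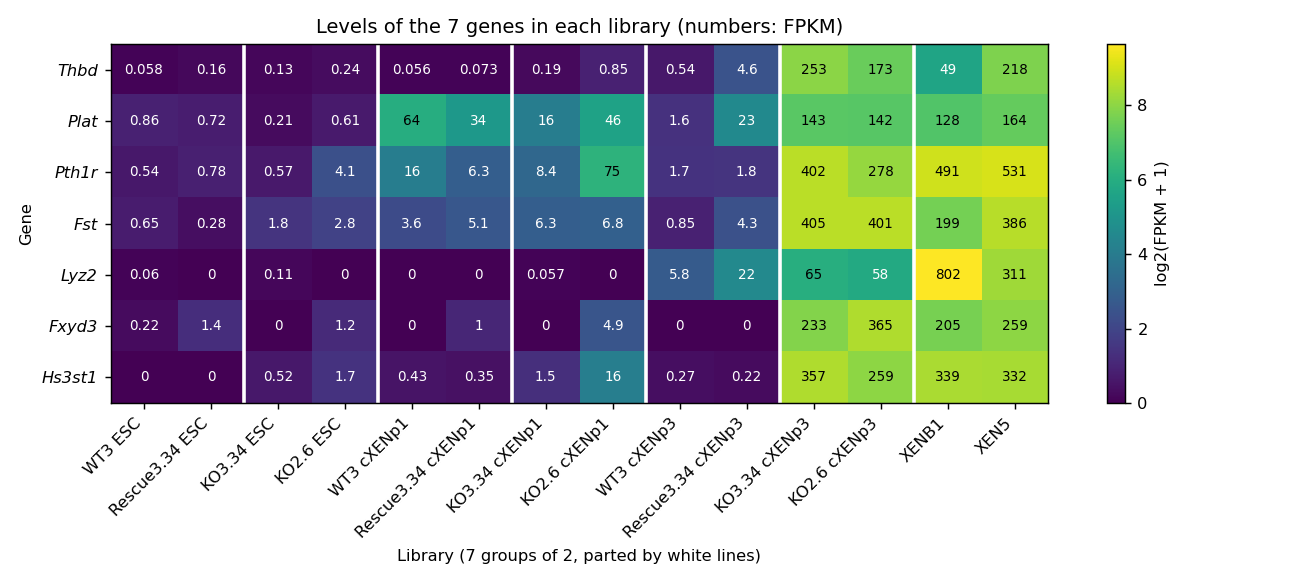
Heat map of the 7 genes (rows) in the 14 libraries (columns), with colour for log2(FPKM + 1) and the FPKM value printed in each cell; white lines part the groups of 2 libraries. All 7 rows are high in the KO cXENp3 and XEN columns, Plat is also raised in the 4 cXENp1 columns, and Lyz2 is highest in XENB1 at 802 FPKM.

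Whether the XEN lines and late KO cells carry a parietal endoderm profile was read from markers other than the 7 genes, whose own high levels there chose them. Of 17 parietal markers listed, 16 were in the table. In each XEN line and each KO cXENp3 library 8 of the 16 were at 1 FPKM or more, fewer than the 13 or 14 in ESCs and the 14 or 15 at cXENp1. In XEN lines against ESCs 8 of 14 tested were called higher and 5 lower, where 22.2% of all genes were called higher and 19.7% lower. Visceral endoderm markers were also present, with 9 of 14 at 1 FPKM or more in XENB1 and 8 in XEN5, against 4 to 7 in ESCs, and 7 of 10 tested were called higher in XEN lines than in ESCs and 2 lower. In KO cXENp3 7 or 8 of the 14 were at 1 FPKM or more. Their sum there was 114 to 192 FPKM, against 585 to 1226 in XEN lines and 522 to 1815 in ESCs. Compared with XEN lines, 2 of 11 tested were called lower and 0 higher, where 1.48% of all genes were called lower. Compared with Zfp281-present cXENp3, 5 of 10 were called higher and 1 lower, beside 22.9% and 19.0% of all genes. With visceral markers also called higher, the lists do not single out parietal identity, and the genes are named here only by their symbols. Lamb1, a laminin chain of the parietal basement membrane, had 1768 and 2386 FPKM in XENB1 and XEN5 and, at cXENp3, 2933 FPKM in the line KO3.34 and 1987 FPKM in KO2.6. Its partners Lama1 and Lamc1, the collagens Col4a1 and Col4a2, and Sparc were listed at exactly 0 in these same 4 libraries, although Sparc had 852 FPKM in KO2.6 at cXENp1. Exact zeros beside such values can be failed estimates. The counts above include these 5 genes, as under 1 FPKM in these 4 libraries and as tested against ESCs. The 8 of 16 and the 5 called lower were therefore not read as a loss of parietal markers.

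Upstream sequence was taken from RefSeq (GRCm38.p6), whose promoter table held 4 of the 7 genes: Pth1r, Hs3st1, Fxyd3 and Lyz2. These windows are shown because the 4 genes were all high in KO cells at cXENp3 and because they differ in base composition. Each line gives the 250 bases before an annotated start, all on the minus strand, 5′ to 3′. Capitals mark the G-rich letters GGGGAGGGG or GGGGGAGGG, of the kind known for Zfp281, or the GC box GGGCGG, on either strand.
Pth1r, chr9:110742611-110742860: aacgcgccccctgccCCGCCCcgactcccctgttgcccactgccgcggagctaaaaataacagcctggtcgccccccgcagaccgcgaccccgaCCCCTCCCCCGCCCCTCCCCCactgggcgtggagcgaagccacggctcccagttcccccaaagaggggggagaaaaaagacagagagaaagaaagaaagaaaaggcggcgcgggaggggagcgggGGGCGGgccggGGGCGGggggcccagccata
Hs3st1, chr5:39644632-39644881: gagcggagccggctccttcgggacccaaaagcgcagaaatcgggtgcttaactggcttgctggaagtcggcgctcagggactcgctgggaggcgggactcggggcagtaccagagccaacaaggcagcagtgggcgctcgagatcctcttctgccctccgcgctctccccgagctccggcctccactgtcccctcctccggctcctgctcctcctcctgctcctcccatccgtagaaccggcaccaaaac
Fxyd3, chr7:31076698-31076947: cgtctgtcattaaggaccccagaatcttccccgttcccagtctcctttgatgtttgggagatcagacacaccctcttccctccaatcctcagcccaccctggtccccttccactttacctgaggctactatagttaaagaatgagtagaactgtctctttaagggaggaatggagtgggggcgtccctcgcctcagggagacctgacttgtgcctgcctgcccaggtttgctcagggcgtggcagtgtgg
Lyz2, chr10:117282273-117282522: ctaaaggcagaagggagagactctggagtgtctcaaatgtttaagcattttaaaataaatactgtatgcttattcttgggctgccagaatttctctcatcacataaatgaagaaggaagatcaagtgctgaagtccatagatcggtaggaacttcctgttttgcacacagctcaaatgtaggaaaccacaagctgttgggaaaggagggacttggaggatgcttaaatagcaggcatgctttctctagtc

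The Pth1r window was 70.4% G and C, the Hs3st1 window 66.0%, the Fxyd3 window 55.2% and the Lyz2 window 41.6%, against a median of 52.4% over 32851 windows of the same length. Pth1r has 2 further annotated starts, with windows of 65.6% and 56.0%, which makes 6 windows for the 4 genes. The G-rich Zfp281-type letters were in 1 of the 6, the Pth1r window printed above, where the 4 matches formed 2 pairs of overlapping letters and 1 of the 4 GC boxes overlapped both pairs. Among all windows 7.29% hold these letters. The GC box was in 2 of the 6 windows, both of Pth1r, and in 32.7% of all windows. The GATA letters (AGATAA or TGATAA or AGATAG or TGATAG) were in 0 of the 6 windows and 26.5% of all. The SOX letters (AACAAT or ACAATG or ACAATA) were in 0 of the 6 and 20.4% of all, and the TATA box TATAAA in 0 of the 6 and 12.4% of all. These counts describe letters in short windows and say nothing of binding.

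Thbd and Plat act on the cell surface and in the matrix around it, in coagulation and fibrinolysis. Thbd (XLOC_012309, chromosome 2, 148230207 to 148233924; all loci as the table gives them, with mm9 named in the submitters' processing notes) encodes thrombomodulin, the thrombin receptor that turns thrombin to the activation of protein C. Among ESCs, WT3 had 0.0578 FPKM, Rescue3.34 0.156, KO3.34 0.130 and KO2.6 0.238. At cXENp1 the same lines had 0.0562, 0.0733, 0.189 and 0.853 FPKM. These 8 values stayed under 1 FPKM. At cXENp3 WT3 had 0.545 FPKM of Thbd, Rescue3.34 4.56, KO3.34 253 and KO2.6 173, beside 49.3 FPKM in XENB1 and 218 in XEN5. The KO libraries stood far above the Zfp281-present libraries of the same stage, while the XEN lines differed from each other by 4.43 times and enclosed the KO2.6 value.

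Plat (XLOC_019772, chromosome 8, 23868216 to 23893320) encodes tissue plasminogen activator, the secreted protease that turns plasminogen into plasmin. WT3 ESCs had 0.860 FPKM, Rescue3.34 0.716, KO3.34 0.208 and KO2.6 0.608. At cXENp1 WT3 had 64.0 FPKM, Rescue3.34 34.2, KO3.34 16.2 and KO2.6 46.5. Each line was above its own ESC value, and the KO and Zfp281-present ranges overlapped. At cXENp3 Plat had 1.62 FPKM in WT3 and 22.8 in Rescue3.34, whereas KO3.34 had 143 and KO2.6 142, and XENB1 and XEN5 had 128 and 164. Plat thus rose in all lines at passage 1 and then separated, with WT3 near its ESC level and both KO lines inside the range of the XEN lines. Rescue3.34 was also the cXENp3 library with the highest sum over 13 fibroblast markers, 1320 FPKM against 43.5 in WT3 and 387 and 494 in the KO lines, with 12 of the 13 markers at 1 FPKM or more in Rescue3.34 against 7 in WT3. The same sum was 953 FPKM in XENB1 and 697 in XEN5 and at most 20.7 FPKM in ESCs, and 9 of 11 fibroblast markers tested were called higher in XEN lines than in ESCs and 0 lower. The sum was thus also high in the KO cXENp3 and XEN libraries, where all 7 genes were high. The part of fibroblast-type RNA in the values of the 7 genes was not tested.

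Pth1r and Fst belong to hormone and growth factor signalling. Pth1r (XLOC_021985, chromosome 9, 110624589 to 110649649) encodes the G protein-coupled receptor for parathyroid hormone and its related protein. WT3 ESCs had 0.540 FPKM, Rescue3.34 0.783, KO3.34 0.566 and KO2.6 4.06. At cXENp1 the levels were 16.0, 6.31, 8.38 and 75.2 FPKM in the same order. KO2.6 was the highest library at either stage, and KO3.34 lay within the Zfp281-present range. At cXENp3 Pth1r had 1.67 FPKM in WT3 and 1.77 in Rescue3.34, against 402 in KO3.34 and 278 in KO2.6, with 491 in XENB1 and 531 in XEN5. The Zfp281-present lines had thus come down from their cXENp1 values, and the KO lines had gone up to 66.5% of the XEN mean.

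Fst (XLOC_005707, chromosome 13, 115242470 to 115248938) encodes follistatin, the secreted protein that binds and neutralizes activin, the factor added to the medium before cXENp1. WT3 ESCs had 0.651 FPKM, Rescue3.34 0.279, KO3.34 1.77 and KO2.6 2.78. The cXENp1 levels were 3.57, 5.07, 6.30 and 6.83 FPKM in the same order. The KO lines were above the Zfp281-present lines at both stages, without overlap, but the difference was called at neither. How many of all genes had this order was not counted. At cXENp3 Fst had 0.853 FPKM in WT3 and 4.25 in Rescue3.34, against 405 in KO3.34 and 401 in KO2.6, with 199 in XENB1 and 386 in XEN5. Both KO values exceeded both XEN values.

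Fxyd3 and Hs3st1 act on ion transport and on heparan sulfate. Fxyd3 (XLOC_018916, chromosome 7, 31844954 to 31861716) encodes a small membrane-spanning regulator of the sodium pump. It had 0.223 FPKM in WT3, 1.39 in Rescue3.34 and 1.23 in KO2.6 ESCs and was listed at 0 in KO3.34. At cXENp1 WT3 and KO3.34 were listed at 0, while Rescue3.34 had 1.04 FPKM and KO2.6 4.90. Low values and zeros were thus mixed within both genotypes. At cXENp3 both WT3 and Rescue3.34 were listed at 0, whereas KO3.34 had 233 FPKM and KO2.6 365, with 205 in XENB1 and 259 in XEN5. The KO range enclosed the XEN5 value.

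Hs3st1 (XLOC_015821, chromosome 5, 40005174 to 40035870) encodes the sulfotransferase that adds 3-O-sulfate to heparan sulfate, the modification that antithrombin binds. WT3 and Rescue3.34 ESCs were both listed at 0, and KO3.34 had 0.523 FPKM and KO2.6 1.65. At cXENp1 WT3 had 0.433 FPKM, Rescue3.34 0.352, KO3.34 1.48 and KO2.6 16.4. Both KO libraries were above both Zfp281-present libraries at the 2 early stages. How many of all genes had this order was not counted, and the difference was not tested in ESCs and not called at cXENp1. At cXENp3 it had 0.270 and 0.219 FPKM in WT3 and Rescue3.34, against 357 and 259 in KO3.34 and KO2.6, with 339 in XENB1 and 332 in XEN5. The KO libraries lay on either side of the XEN lines.

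Lyz2 (XLOC_002230, chromosome 10, 116714597 to 116719328) encodes lysozyme, an enzyme that cleaves bacterial cell walls and is best known from macrophages. In ESCs Lyz2 had 0.0599 FPKM in WT3 and 0.114 in KO3.34 and was listed at 0 in Rescue3.34 and KO2.6. At cXENp1 KO3.34 had 0.0567 FPKM, and the value was 0 for the other 3 lines. No early library thus exceeded 0.114 FPKM. At cXENp3 WT3 had 5.84 FPKM, Rescue3.34 22.1, KO3.34 64.6 and KO2.6 57.5, and XENB1 and XEN5 had 802 and 311. Lyz2 was the gene whose Zfp281-present libraries came closest to the KO libraries at cXENp3, with a mean of 22.9% of the KO mean, against 8.57% for Plat and at most 1.20% for Thbd, Fst, Pth1r and Hs3st1. Its near copy Lyz1 did not exceed 0.0969 FPKM in any library, but reads of the 2 genes can be shared between them.

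**Figure D2:**
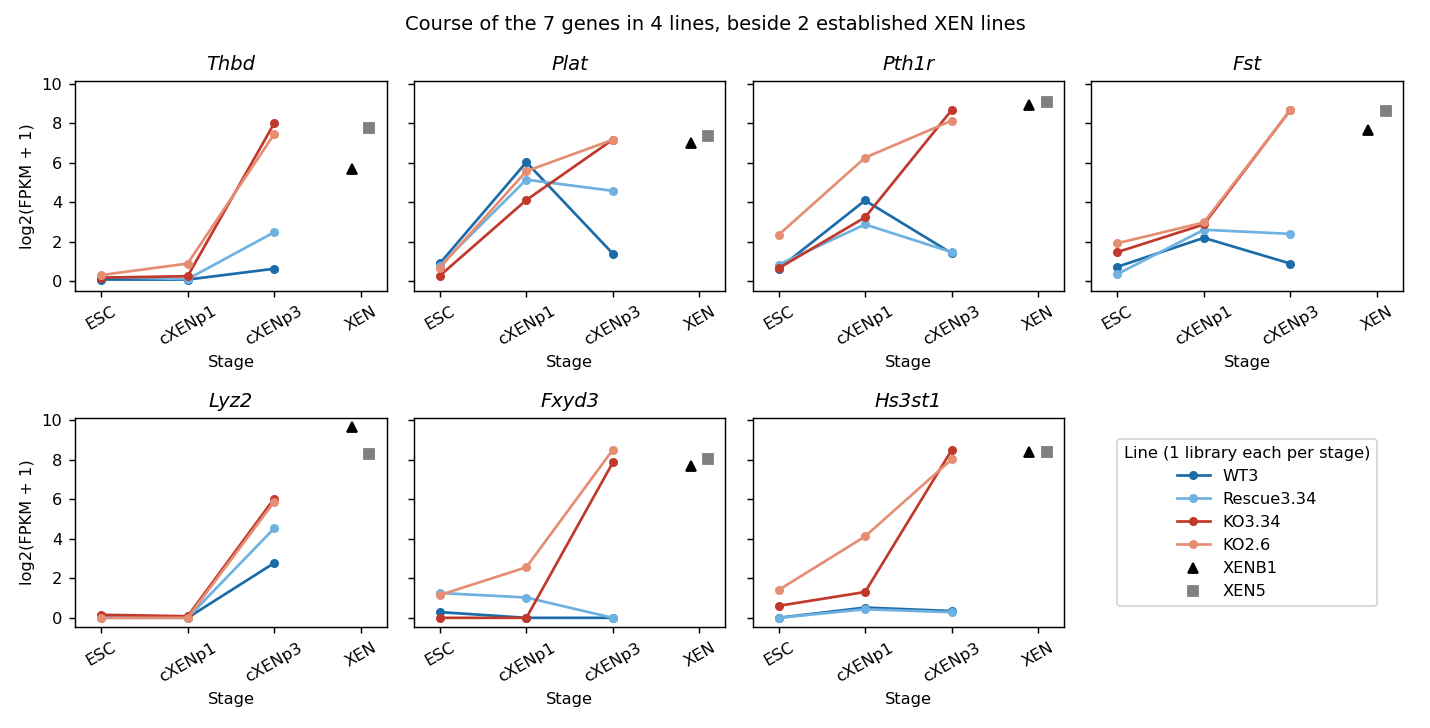
Course of each gene in 4 lines from ESC to cXENp3 as log2(FPKM + 1), with the XEN lines at the right; each point is 1 library. The red KO lines end near the XEN points except for Lyz2, and in the blue Zfp281-present lines Plat, Pth1r and Fst come down after cXENp1.

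Exact zeros numbered 12 among these values, 5 in Lyz2, 5 in Fxyd3 and 2 in Hs3st1. They filled both libraries of a genotype and stage in 3 cases: Lyz2 in Zfp281-present cXENp1, Fxyd3 in Zfp281-present cXENp3 and Hs3st1 in Zfp281-present ESCs. No difference is given against these pairs. Of all 23174 rows 8970 had such a pair. Among 1741 rows that reached 100 FPKM in some library, 37 (2.13%) had one, and 3 of the 7 genes did. Neither set of rows was chosen, as the 7 were, for high levels in XEN lines and late KO cells, so no excess is read from these shares. Hs3st1 was at most 0.433 FPKM at the later stages of WT3 and Rescue3.34, and Lyz2 at most 0.114 FPKM in the other libraries of the first 2 stages. Fxyd3 had reached 1.39 FPKM as ESCs and 1.04 FPKM at cXENp1 in Rescue3.34, the line whose cXENp3 value is one of its paired zeros.

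Over the 7 groups of 2 libraries, the order of the means put KO cXENp3 and the XEN lines first for each of the 7 genes. High levels there chose the genes, so this lead and the gap below it are a description only. KO cXENp3 led for Thbd (213 ± 56.5 FPKM, mean ± SD, n = 2), Fst (403 ± 3.18) and Fxyd3 (299 ± 93.2). The XEN lines led for Plat (146 ± 25.3), Pth1r (511 ± 28.4), Lyz2 (556 ± 347) and Hs3st1 (335 ± 5.09). The leading pair of groups overlapped in range for Thbd, Plat, Fxyd3 and Hs3st1 and did not for Pth1r, Fst and Lyz2. How many of all genes had no overlap between these groups was not counted, so no result is read from this. The next group down never overlapped with the pair. It was Zfp281-present cXENp1 for Plat (49.1 ± 21.0 FPKM), KO cXENp1 for Pth1r (41.8 ± 47.2), Hs3st1 (8.95 ± 10.6) and Fst (6.57 ± 0.377), and Zfp281-present cXENp3 for Lyz2 (14 ± 11.5) and Thbd (2.55 ± 2.84). For Fxyd3 it was KO cXENp1, with 4.90 FPKM in KO2.6 and 0 in KO3.34. Further down neighbours overlapped in most cases. Some of these lower groups still held sizeable levels, as for Plat in KO cXENp1 (31.3 ± 21.4 FPKM) and Zfp281-present cXENp3 (12.2 ± 15.0) and for Pth1r in Zfp281-present cXENp1 (11.1 ± 6.83).

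The size of the late difference is given as a description, since it chose the genes. At cXENp3 the KO mean exceeded the Zfp281-present mean by a log2 difference of 7.94 for Hs3st1, 7.02 for Fst, 6.95 for Pth1r, 6.16 for Thbd, 4.18 for Plat and 2.30 for Lyz2, with no value for Fxyd3, which was listed at 0 in both Zfp281-present libraries. Plat and Lyz2 depended on which Zfp281-present line was used: without WT3 they were 2.59 and 1.42, and without Rescue3.34 5.78 and 3.18. In that comparison 22.9% of 13191 genes tested were called higher in KO, which is given for scale only. The XEN lines exceeded ESCs by 8.91 for Lyz2, 7.89 for Pth1r and Hs3st1, 7.18 for Fxyd3, 7.0 for Fst, 6.53 for Plat and 6.52 for Thbd, where 22.2% of 12372 genes were called higher. Lyz2 therefore had the largest of the 7 differences between XEN lines and ESCs and the smallest of the 6 between genotypes at cXENp3.

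From cXENp1 to cXENp3 the KO lines gained between 2.33 (Plat) and 7.14 (Thbd) on average. The average hides a spread for Pth1r, where KO3.34 gained 5.43 but KO2.6 only 1.87, and for Plat, where they gained 3.06 and 1.59. The Zfp281-present lines came down for Plat, by a change of -4.63 in WT3 but only -0.57 in Rescue3.34. Pth1r changed by -2.67 in WT3 and -1.40 in Rescue3.34, Fst by -1.30 and -0.21, Hs3st1 by -0.17 and -0.15, and Thbd by 0.55 and 2.37. Relative to its own ESCs, Rescue3.34 at cXENp3 was higher by 3.79 for Plat, 2.27 for Thbd and 2.04 for Fst, whereas WT3 was higher by 0.49, 0.55 and 0.17. Lyz2 was 2.69 higher in WT3, while the ESC value of Rescue3.34 is listed at 0. The Zfp281-present gains in Plat, Thbd and Fst were thus mainly those of Rescue3.34.

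The change from ESC to cXENp1, which did not choose the genes, was tested with line as a block. It joins retinoic acid and activin with a change of medium and a passage, which cannot be told apart here. Plat rose, with a log2 difference of 4.55 (SE 1.04, adjusted p 0.0125), higher in 4 of 4 lines. It was the only 1 called of the 5 genes that reached 1 FPKM in at least 2 ESC or cXENp1 libraries, in the fit of 12 course libraries, where 14.7% of 13191 genes were called higher. Its call was lost without Rescue3.34 (4.61, adjusted p 0.0658). The call was also lost when the prefix of the library description, which separates 3 of the 4 ESC libraries from the rest, was a term (5.75, adjusted p 0.106). Pth1r was higher in 4 of 4 lines, by 3.00 (95% interval 0.29 to 5.70, adjusted p 0.0892). Fst was 1.54 higher (-1.12 to 4.21, adjusted p 0.349) and Hs3st1 1.09 higher (-1.74 to 3.93, adjusted p 0.541), also in 4 of 4 lines. Fxyd3 differed by 0.22 (-3.18 to 3.62, adjusted p 0.928). Thbd and Lyz2 were under 1 FPKM in all 8 libraries and were not tested.

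The spread in that fit includes the split of these genes at cXENp3. A fit of the 8 ESC and cXENp1 libraries alone, added after that spread was seen, left the differences as they were and lowered their errors. In it Plat (SE 0.25, adjusted p 2.49e-05), Pth1r (SE 0.31, adjusted p 0.000329), Fst (SE 0.24, adjusted p 0.00172) and Hs3st1 (SE 0.38, adjusted p 0.0464) were called higher, 4 of the 5 genes. Of all 12724 genes in this fit 22.9% were called higher. Fxyd3 was not called (adjusted p 0.583). Plat, Pth1r and Fst were also called in this fit when any 1 line was left out. The Hs3st1 call held only with all 4 lines, at an adjusted p of 0.0548 without WT3, 0.0523 without Rescue3.34 and 0.0954 without KO3.34, and without KO2.6 the gene no longer passed the filter. KO2.6 changed by 2.72, against 0.70 for KO3.34, 0.52 for WT3 and 0.43 for Rescue3.34. With the description prefix as a term the differences became those of KO2.6 alone, and Fst was no longer called (1.05, adjusted p 0.112), while Fxyd3 was (1.40, adjusted p 0.0338). With no block for line Hs3st1 was not called (adjusted p 0.263). The mean over 4 lines at cXENp1 was 27.5% of the XEN mean for Plat, 5.18% for Pth1r, 1.86% for Fst, 1.39% for Hs3st1 and under 1% for the other 3.

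**Figure D3:**
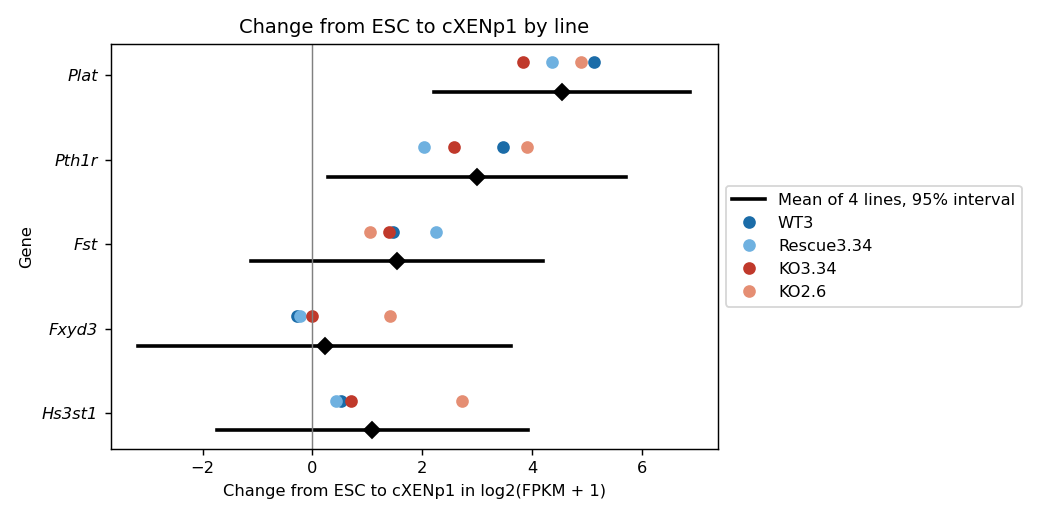
Change from ESC to cXENp1 in log2(FPKM + 1) for the 5 genes tested; each coloured point is 1 line, and the black diamond and bar are the mean of 4 lines and its 95% interval from the fit of 12 libraries. Plat has the highest mean, at 4.55, and KO2.6 stands apart from the other 3 lines for Hs3st1.

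Whether the genotypes already differed before cXENp3 was tested in the fit of 6 groups of 2 libraries. Only genes that reached 1 FPKM in at least 2 of the libraries compared were tested, which were Fst and Fxyd3 in ESCs. In ESCs 0 of these 2 were called, where 1.97% of 13191 genes were called and 2762 had an unadjusted p under 0.05. Fst was 1.15 higher in KO (95% interval 0.22 to 2.09, unadjusted p 0.0203, adjusted p 0.155), with both KO libraries above both others, and Fxyd3 differed by -0.20 (-1.86 to 1.47, adjusted p 0.946). The Hs3st1 values in KO ESCs, 0.523 and 1.65 FPKM, stand beside a pair listed at 0.

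At cXENp1 Thbd and Lyz2 were too low to test, and 0 of the other 5 genes were called in KO against Zfp281-present lines, where 0.485% of all genes were called and 1486 had an unadjusted p under 0.05. Hs3st1 had the largest difference, 2.24 (95% interval 0.69 to 3.78, unadjusted p 0.00908, adjusted p 0.235), and Pth1r was 1.26 higher (-0.64 to 3.16, adjusted p 0.647). Both rested on KO2.6, which had 11.1 times the Hs3st1 and 8.97 times the Pth1r level of KO3.34, whereas Fst differed between the KO lines by 1.08 times. Without KO3.34 the differences were 3.65 for Hs3st1 (adjusted p 0.00171) and 2.77 for Pth1r (adjusted p 0.0279), both called. Without KO2.6 they were 0.83 and -0.25, and neither was called. Plat was 0.74 lower in KO (-2.60 to 1.12, adjusted p 0.829). KO2.6 also had the highest sum over 11 primitive endoderm markers at cXENp1, 1203 FPKM against 114 to 126 FPKM in the other 3 lines, and in ESCs, 118 FPKM against 7.20 to 14.3. Col4a1, a collagen that is also on the parietal list, made up 772 of the 1203 FPKM and had 43.6 to 51.3 FPKM in the other 3 lines. In KO2.6 ESCs it made up 67.3 of the 118 FPKM. The part of primitive endoderm-type RNA in the KO2.6 values was not tested. The change of the genotype difference from ESC to cXENp1, tested as an interaction, was called for 0 of 4 genes and for 0.0379% of all genes, with 1555 at an unadjusted p under 0.05. Its values were -0.63 for Fst, -0.38 for Plat, 0.50 for Pth1r and 0.96 for Fxyd3. This fit had no block for line, so the pairing of stages within a line was not used and line differences entered its error.

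KO cells at cXENp3 were then set beside the XEN lines. High levels in these same 4 libraries chose the genes, so the differences are a description with no test. Lyz2 stood apart, lower in KO by a log2 difference of -3.01, or between -3.70 and -2.33 with 1 line left out. Its KO mean was 11% of the XEN mean, and both KO libraries were below both XEN lines. Thbd was 1.00 higher in KO, a difference that was -0.06 without XENB1 and 2.06 without XEN5. Fst was 0.54 higher, but 0.06 without XENB1. Fxyd3 differed by 0.34, Plat by -0.03, Hs3st1 by -0.14 and Pth1r by -0.61.

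Because Lyz2 is a macrophage product, 15 macrophage markers were read beside it, 13 of them in the table. Their summed level was 31.2 to 79.7 FPKM in ESCs, 4.27 to 16.1 at cXENp1, 13.8 to 33.8 at cXENp3, and 159 in XENB1 and 62.3 in XEN5. XENB1 had the highest sum and the highest Lyz2. Tyrobp, a signalling adaptor of myeloid cells, had 55.7 FPKM in XENB1 and 17.3 in XEN5 and was listed at 0 in all ESC and cXENp1 libraries. Csf1r, the receptor for macrophage colony stimulating factor, had 7.35 and 6.07 FPKM in XENB1 and XEN5. Ptprc, the common leukocyte antigen, had 1.43 and 0.701 FPKM there. Laptm5 went the other way, with 23.4 to 61.6 FPKM in ESCs against 21.1 in XENB1 and 9.48 in XEN5. Cd68 overlapped, with 7.14 to 22.4 FPKM in ESCs against 18.2 and 8.73. Laptm5 and Cd68, named after their values were seen, made up most of the sum in ESCs. In XEN lines against ESCs 7 of 9 tested were called higher and 0 lower, where 22.2% of all genes were called higher and 19.7% lower. Of 9 macrophage markers tested, 3 were called lower in KO cXENp3 than in XEN lines, Tyrobp by -2.54, Emr1 by -1.31 and Itgam by -1.06, and 0 higher, where 1.48% of 13386 genes were called lower. This count was 0 without WT3 or Rescue3.34, 1 without KO2.6 or XENB1, 2 without KO3.34 and 4 without XEN5. Emr1 and Itgam were named after their values were seen. With KO set against Zfp281-present lines at cXENp3, 4 of 7 tested were called higher, among them Fcer1g (2.02), Tyrobp (1.66) and Cd14 (1.48), and 1 lower, where 22.9% of all genes were called higher and 19.0% lower. Without WT3 or Rescue3.34 these counts were 2 and 0, and without KO2.6 3 and 0. The part of macrophage-type RNA in the Lyz2 values was not tested.

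Thbd is also known from endothelium, and 13 endothelial markers were read beside it. Their sum was 84.9 to 145 FPKM in KO cXENp3, 77.2 to 81.7 in XEN lines, 34.6 to 43.7 in Zfp281-present cXENp3, 16.5 to 27.6 at cXENp1 and 36.3 to 51.7 in ESCs. At cXENp3, 4 of 10 tested were called higher in KO and 2 lower, beside 22.9% and 19.0% of all genes, and without KO2.6 2 were called higher and 1 lower. Cdh5, the endothelial cadherin, differed by 4.70 and the receptor Flt1 by 4.48, whereas the adhesion molecule Pecam1 differed by -3.31. Pecam1 was at most 1.84 FPKM in KO cXENp3 and XEN libraries and 11.8 to 38.8 FPKM in ESCs. The part of endothelial-type RNA in the Thbd values was not tested.

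The wider pathways of the 7 genes were read from lists that exclude the 7. Of 19 genes of fibrinolysis and coagulation control, 15 were tested, and 9 were called higher and 0 lower in KO at cXENp3, where 22.9% of all genes were called higher and 19.0% lower. Their median difference was 1.43, against 0.01 over all genes. F3, tissue factor, which starts coagulation, had 469 FPKM in KO3.34 and 607 FPKM in KO2.6, 4.60 and 19.1 in WT3 and Rescue3.34, and 537 and 748 in the XEN lines (KO against Zfp281-present 5.66, SE 0.50, adjusted p 9.53e-05). Procr, the endothelial protein C receptor, which presents protein C to thrombomodulin, had 65.2 FPKM in KO3.34 and 177 FPKM in KO2.6, 2.42 and 3.12 in WT3 and Rescue3.34, and 104 and 116 in the XEN lines (4.86, SE 0.55, adjusted p 0.000287). Plaur, the urokinase receptor, differed by 3.97 (SE 0.85, adjusted p 0.00535). Its KO libraries had 131 and 213 FPKM and the Zfp281-present libraries 7.40 and 12.8. Without WT3 the count of genes called higher was 3. In XEN lines against ESCs 11 of 14 tested were called higher and 1 lower, where 22.2% of all genes were called higher and 19.7% lower. Procr was thus a gene of the Thbd pathway with the same order of groups, KO cXENp3 and XEN lines above all other libraries.

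**Figure D4:**
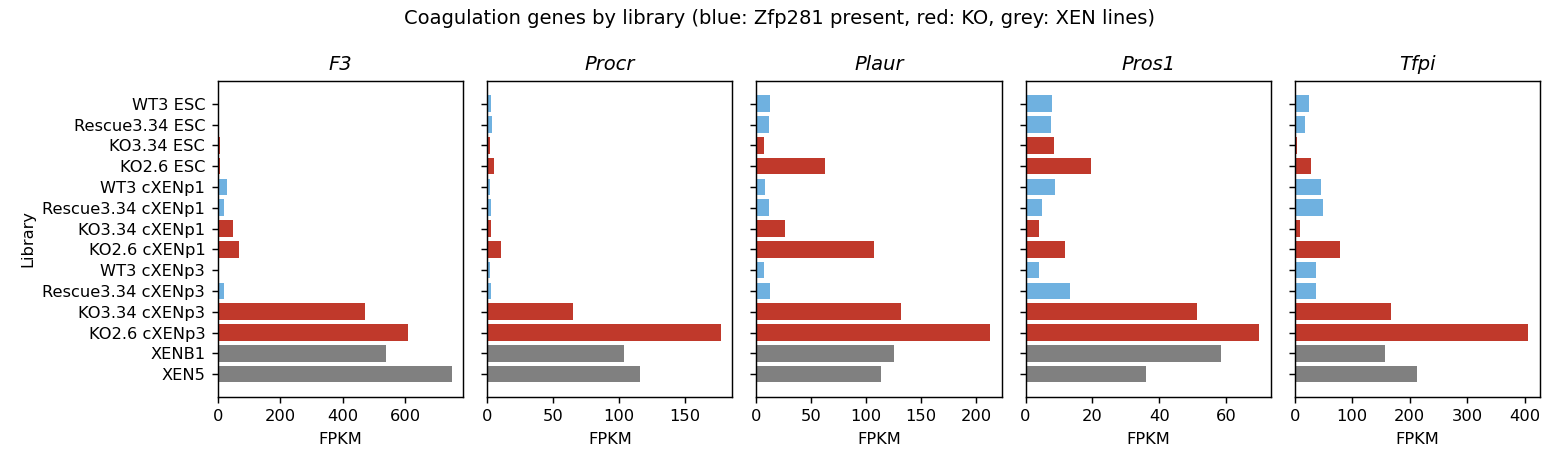
FPKM of 5 coagulation and fibrinolysis genes in the 14 libraries; each bar is 1 library, blue for Zfp281-present, red for KO and grey for XEN lines. The 4 bars of KO cXENp3 and the XEN lines are the longest in each panel, from 469 to 748 FPKM for F3.

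At cXENp1 against ESC, 4 of the 15 fibrinolysis and coagulation genes were called higher and 1 lower, where 14.7% of all genes were called higher and 13.8% lower. Without Rescue3.34 or KO3.34 2 were called higher and 0 lower. Plau, urokinase, the other plasminogen activator, rose by 3.65 (SE 0.55, adjusted p 0.00215). It had 5.00 to 27.5 FPKM at cXENp1, and at cXENp3 WT3 had 1.47 FPKM, Rescue3.34 16.4, KO3.34 7.32 and KO2.6 13.6. Unlike Plat, Plau had overlapping KO and Zfp281-present values at cXENp3. F3 rose by 2.74 (SE 0.91, adjusted p 0.0482), and F2rl1, a protease-activated receptor, fell by 2.15 on the log2 scale (SE 0.49, adjusted p 0.0124).

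Of 16 genes around follistatin and activin, 15 were tested. In KO at cXENp3, 4 were called higher and 2 lower, close to the shares over all genes. The activin subunit genes went apart. Inhba had 23.3 FPKM in KO3.34 and 36.3 FPKM in KO2.6 against 0.951 and 9.71 in WT3 and Rescue3.34 (2.72, SE 0.62, adjusted p 0.00722). Inhbb had 7.71 and 2.87 FPKM in the KO lines against 38.2 and 27.3 (-2.52, SE 0.34, adjusted p 0.000633). Tgfbr3, a co-receptor that binds inhibin, was higher by 2.81 (SE 0.36, adjusted p 0.000476). Without WT3 1 gene of the list was called higher and 1 lower. At cXENp1 against ESC 6 were called higher and 2 lower, beside 14.7% and 13.8% of all genes, with Inhbb at -5.14 (SE 0.54, adjusted p 0.000462), Fstl1 at 2.1 and Fstl3, a follistatin-like activin binder, at 1.30. Without WT3, Rescue3.34 or KO3.34 2 were called higher and 1 lower.

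Of 16 genes of parathyroid hormone signalling, 11 were tested, and 3 were called higher and 1 lower in KO at cXENp3, counts near the 22.9% and 19.0% over all genes. Ramp2, a partner protein of G protein-coupled receptors, had 66.9 FPKM in KO3.34 and 48.2 FPKM in KO2.6, 2.77 and 1.82 in WT3 and Rescue3.34, and 48.5 and 60.2 in the XEN lines (4.15, SE 0.67, adjusted p 0.00139). The adenylyl cyclase Adcy6 was higher by 2.65 (SE 0.38, adjusted p 0.000802) and Gnas, the stimulatory G protein, by 1.58 (SE 0.20, adjusted p 0.000499). Adcy6 and Gnas had already risen at cXENp1, by 2.06 and 1.51, where 3 of the 11 were called higher and 0 lower, beside 14.7% and 13.8% of all genes. At cXENp3 5 were called higher and 2 lower without KO3.34 and 3 and 0 without WT3 or Rescue3.34, and at cXENp1 0 were called higher without Rescue3.34 and 1 without KO3.34. The ligand gene Pthlh did not exceed 0.122 FPKM in any library, so the receptor was high where its ligand RNA was at or near 0.

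Of 24 genes of heparan sulfate synthesis, 18 were tested, and 9 were called higher and 3 lower in KO at cXENp3, beside 22.9% and 19.0% of all genes. Hspg2, the perlecan core protein of basement membranes, had 264 FPKM in KO3.34 and 252 FPKM in KO2.6, 24.4 and 26.9 in WT3 and Rescue3.34, and 60.8 and 44.9 in the XEN lines. It was higher in KO than in Zfp281-present lines by 3.28 (SE 0.50, adjusted p 0.00105) and than in XEN lines by 2.28 (SE 0.48, adjusted p 0.0269). Hs6st2, a 6-O-sulfotransferase, was higher by 3.19 (SE 0.65, adjusted p 0.00428), and Gpc3, a membrane-anchored heparan sulfate carrier, was lower by a difference of -3.00 (SE 0.73, adjusted p 0.0098). Without WT3 5 were called higher and 0 lower, and without another line 7 to 9 higher and 1 lower. At cXENp1 against ESC 6 were called higher and 1 lower, beside 14.7% and 13.8% of all genes, with Hs6st2 at 3.93 and Gpc3 at 3.37, so Gpc3 rose at cXENp1 and was lower in KO at cXENp3. Without KO3.34 2 were called higher at cXENp1.

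Of 13 FXYD and sodium pump genes, 9 were tested, and 2 were called higher and 3 lower in KO at cXENp3, beside 22.9% and 19.0% of all genes. Among those lower were Fxyd6, a relative of Fxyd3 (-4.20, SE 1.21, adjusted p 0.0199), and the beta subunit Atp1b2 (-3.60, SE 0.51, adjusted p 0.000766). In ESCs 3 of the 9 were called lower in KO, where 0.917% of all genes were called lower. Among them were Atp1b2 at -2.99 (adjusted p 0.0285) and Fxyd1, named after its value was seen, at -1.54 (adjusted p 0.0468). That fit called 260 of 13191 genes in either direction. A fit of the ESC libraries alone called only 2 of 11397, so the 3 calls of this list did not all hold in it. Atp1b2 had 33.6 and 33.7 FPKM in WT3 and Rescue3.34 ESCs, 6.82 in KO3.34 and 1.43 in KO2.6. Fxyd6 had 193 and 180 FPKM in WT3 and Rescue3.34 ESCs, 88.5 in KO3.34 and 2.13 in KO2.6. Without WT3 0 of the list were called higher in KO at cXENp3 and 2 lower, and without Rescue3.34 or KO2.6 1 was called higher. Fxyd3 and Fxyd6 thus had opposite signs at cXENp3. Quantile normalization moved the median of all genes at cXENp3 by about 0.1, from 0.01 to -0.11, and left the counts of these 5 lists within 1 gene.

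Likeness among the 7 genes was described by Pearson correlation of log2(FPKM + 1) over the 14 libraries. The 21 pairs ran from 0.66 (Plat and Lyz2) to 0.98 (Fxyd3 and Hs3st1), with a median of 0.88. Over the 10 libraries without KO cXENp3 and XEN they ran from -0.39 to 0.87, with a median of 0.28. The likeness of the 7 as a set thus lay mainly in the 4 libraries that chose them. Some pairs kept a high correlation over the 10 others, such as Thbd and Lyz2 (0.87), Pth1r and Hs3st1 (0.83) and Plat and Fst (0.80). Thbd was under 1 FPKM and Lyz2 at most 0.114 FPKM in all ESC and cXENp1 libraries. That pair thus rested mainly on Zfp281-present cXENp3, with 4.56 and 22.1 FPKM in Rescue3.34. Pth1r and Hs3st1 were both highest of the 10 in KO2.6 cXENp1, at 75.2 and 16.4 FPKM. Libraries of 1 line are not independent. Among 13386 genes, those close to Thbd included Prrc1 and Bmper (both 0.98), and the closest to Plat were Sepn1, Lhfpl2 and Samd14 (each 0.98). The closest to Pth1r were Abhd5, Cobll1 and St3gal6 (each 0.99) and to Fst Adamts9, Entpd7 and Pde4dip (each 0.99). Lyz2 was closest to the chemokine genes Ccl7 and Ccl2 and the mast cell protease Mcpt8 (each 0.98). Fxyd3 was closest to Procr, Tex264 and Adora1, and Hs3st1 to Adamtsl5, Ctsh and Osbp (each 0.99).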

How the data were processed

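The 14 libraries were mapped to line and stage by title. For KO2.6 the cell line field gives a different number, and the title was used. The 7 genes, the pathway lists and the marker lists were chosen with earlier results of these data known. The deposited values were taken as FPKM that the authors computed, a unit the labels do not state and that rests on the named tools and the values. The submitters' processing notes name STAR 2.5.3, Cufflinks 2.1.1 and mm9. The annotation is not given in the sources used here, and the table holds no counts.

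Values were analysed as log2(FPKM + 1). Genes with at least 2 fitted libraries at 1 FPKM were fitted with limma 3.58.1 in R 4.3.3 (lmFit, eBayes with trend), and every adjusted p is Benjamini-Hochberg over all genes of a fit. All 7 genes passed this filter, some only through libraries where they were high, so a test is given only for those of the 7 with 2 of the compared libraries at 1 FPKM. No difference is given against a group listed at 0. KO cXENp3 against XEN lines was planned as a test and is given without one, since high levels in both chose the genes. Stages were compared with line as a block, since each line gave 1 library per stage and so pairs the stages. Genotypes and XEN lines were compared between groups of 2 libraries that share 1 spread. The interaction was fitted on the same groups, without the line block. The fits were tested on simulated data. Named genes are the 7, Zfp281 and the 3 genes most correlated with each of the 7. Added to these are up to 3 called genes per list with the largest difference at cXENp3 or cXENp1. Other named genes, such as Csf1r, Ptprc, Lyz1, Pthlh, Laptm5 and Cd68, fall outside this rule and were named with their values known. The results of 2 genes that this rule selects are left out. Pros1 and Tfpi are plotted as the next in size. No 2 libraries were identical, and 0 value columns were left unmapped. Alternatives covered the pseudocount (0.1), filters, quantile normalization, eBayes without trend, the block, the description prefix and each line left out. Coordinates of the table and of RefSeq windows are of different builds and were not converted.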

Additional observations from a re-analysis of the deposited data

Results flagged for a closer look

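For 4 genes the KO lines and the Zfp281-present lines moved in opposite directions from cXENp1 to cXENp3, with both KO lines higher and WT3 and Rescue3.34 both lower at the later stage. The KO change exceeded the Zfp281-present change by a log2 value of 4.9275 for Plat, 5.6868 for Pth1r, 6.494 for Fst and 5.699 for Hs3st1. These differences were not tested, because the cXENp3 values had a part in choosing the genes, and for Hs3st1 the Zfp281-present levels behind it are all under 1 FPKM.

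Thbd moved in opposite directions from ESC to cXENp1, up in KO3.34 and KO2.6 and down in WT3 and Rescue3.34, with a difference of 0.3825 between the changes. This difference was not tested, since the 8 levels behind it are all under 1 FPKM.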

How the results depend on the processing

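The number of the 7 genes called in cXENp1 against ESC was 1. It was 2 with a pseudocount of 0.1, where Pth1r was added (3.84, adjusted p 0.0472), 0 with a term for the description prefix, and 4 in the fit of ESC and cXENp1 libraries alone, chosen after seeing the data. It was 1 with no replicate block, so the line pairing did not change this count, and 0 to 1 with 1 line left out. Within the fit of ESC and cXENp1 libraries the 4 calls became 3 with any 1 line left out and 3 with no replicate block. KO against Zfp281-present lines gave 0 genes in ESCs (0 with any 1 line left out) and 0 at cXENp1 (0 to 2). Between KO cXENp3 and XEN lines 1 gene differed by a log2 value over 1. That number was 2 with a pseudocount of 0.1, 2 with quantile normalization and 1 to 3 with 1 line left out. A line left alone in a group was assumed to vary like the other groups. Of the Zfp281-present differences between cXENp3 and ESC, 4 exceeded a log2 value of 1 in size. The number was 1 to 4 with 1 line left out. Pairs of libraries listed at 0 numbered 3, and 6 pairs were under 0.1 FPKM. The other 88 recomputed counts for the 7 genes stayed within 1.5 times, and no called difference changed sign. The cause of these shifts was not tested. With no read counts, the error of values near 0 is unknown. With 2 libraries per group, differences under about the widths of the intervals given cannot be resolved.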
